A study of Mus musculus with 18 samples.

Results

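The samples described here compare macrophages before and after the second dose of LPS when carboplatin was present from before the first dose. They are 6 of the 18 RNA-Seq samples of the study, taken by their group labels: 3 LPS-tolerant samples (Tol-Carbo25) and 3 LPS-primed samples (LPS100-Carbo25). All were bone marrow-derived macrophages (BMDMs), which are macrophages grown from bone marrow cells in medium conditioned by L929 cells, and they came from female C57BL/6 mice. Both groups carried carboplatin at 25 µM, added 1 h before LPS of Salmonella at 100 ng/ml, and stayed in that LPS for 24 h. LPS-tolerant BMDMs then had their medium removed and replaced by fresh medium holding LPS at 10 ng/ml for 3 h. The sources used here do not say that LPS-primed BMDMs had their medium changed, so the second dose, the fresh medium, the removal of the drug and the further 3 h cannot be told apart. For comparison, BMDMs were taken through the same doses without carboplatin (LPS100 and Tol, 3 samples each), and 3 samples that had met no LPS (Unstim) were set against 3 given LPS at 10 ng/ml for 3 h as their only dose (LPS10Control). The samples are described as biological replicates, and how many mice they came from is not stated.

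LPS, the endotoxin of Gram-negative bacteria, is recognised by TLR4 with CD14 and MD-2. The adaptors MyD88 and TRIF carry the signal to NF-κB, to MAP kinases and to interferon-β, and through these to cytokine, chemokine and interferon-stimulated genes. Macrophages that have met LPS answer a later dose with much less TNF-α and IL-6, a state called LPS tolerance, in which some genes can no longer be induced and others can. Carboplatin is a platinum drug that crosslinks DNA and is used against tumours.

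With carboplatin, LPS-tolerant BMDMs expressed more of 17 of the 34 tested genes of cholesterol synthesis and uptake, of the transcriptional regulators Myc, Id1, Id2 and Id3, of Tnf and of the chemokines Ccl3 and Ccl4 than LPS-primed BMDMs. They expressed less of Nfil3 and Il15 and, in the fit that pairs samples by replicate number, of Nos2 and of 14 of 59 tested interferon-stimulated genes, of which 1 was called without that pairing. Of 11305 tested genes, 1040 had an adjusted p under 0.05, by edgeR's quasi-likelihood F test with the replicate number as a block. Higher expression in LPS-tolerant BMDMs was found for 597 genes (5.28%) and lower expression for 443 (3.92%). These percentages are the background for the list counts of this contrast with the block. For list counts without the block, the background is 146 higher and 78 lower genes of the 11305. The 3 LPS-tolerant and 3 LPS-primed samples with the same replicate number moved the same way in all 3 pairs for 1038 of the 1040 genes. Since the genes were called from these same pairs, this agreement is no separate support for the calls. Most changes were small: the median size was 0.76 on the log2 scale, a 1.70-fold difference, and 302 genes differed by more than 1 on that scale. With the limits |log2FC| > 2 and an adjusted p under 0.05, 43 DEGs were higher (0.38%) and 16 were lower (0.142%). The genes nearest to the log2FC limit were Ccl4 at 2.005 and Nos2 at -2.01 just inside it, and Rhob at 1.98 and Rubcnl at -1.99 just outside.

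The number of genes called leaned on the pairing by replicate number. Without the replicate block, 224 genes were called (146 higher and 78 lower), all of them among the 1040, and 30 DEGs remained. Scaling by library size alone gave 453 higher and 565 lower genes in place of 597 and 443. The count was 617, 615 and 484 without LPS-primed replicate 1, 2 or 3, and 571, 633 and 472 without LPS-tolerant replicate 1, 2 or 3. In all, 2650 genes had an unadjusted p under 0.05, where 565.2 would be expected if no gene differed.

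**Figure D1:**
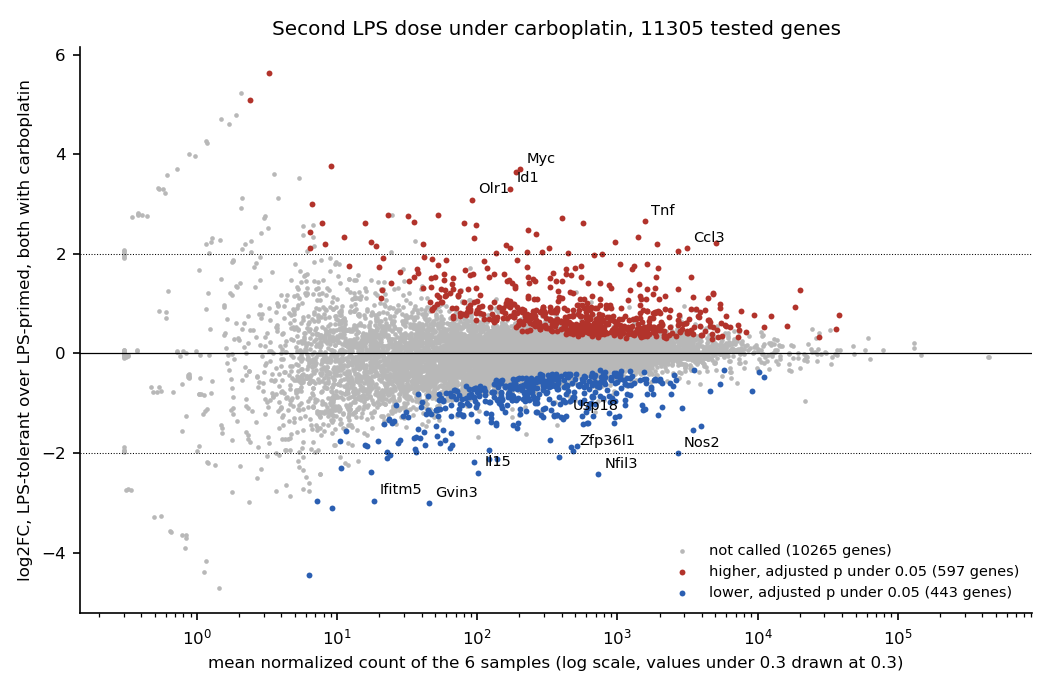
Each point is a tested gene, with its mean normalized count over the 6 samples on the x axis (log scale) and its log2FC, LPS-tolerant over LPS-primed BMDMs with carboplatin, on the y axis. Red and blue points are the 597 higher and 443 lower genes, and the dotted lines mark log2FC values of 2 and -2. Myc, Id3, Id1 and Olr1 stand highest among the genes with a mean over 30, and Nfil3 and Il15 lie lowest among those with a mean over 100.

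Total counts on genes ran from 6869667 to 10188149 read pairs in the 6 samples, and from 6869667 to 14708099 in all 18. Counting error limits what can be said of genes with few reads. LPS-primed replicate 1 was the shallowest, and replicate 1 of either group lay farthest from the other 2 of its group on the first 2 principal components. The 10 macrophage markers, among them Adgre1, Csf1r and Cd68, summed to 32616 to 35824 CPM, a unit of counts scaled by library size, in LPS-primed and 31764 to 36845 CPM in LPS-tolerant BMDMs, and 2 of the 10, Mertk and Fcgr1, fell, though neither was called without the replicate block. All 6 erythroid markers had 0 reads, and markers of T cells, B cells, NK cells, dendritic cells and mast cells each summed to at most 1.596 CPM in any sample. Neutrophil markers summed to 15.2 to 58.3 CPM before and 20.1 to 51.1 CPM after the second dose with 0 called, and fibroblast markers to 2.47 to 7.37 and 1.69 to 5.38 CPM. Endothelial markers summed to 5.41 to 10.1 CPM in LPS-primed and 11.6 to 17.98 CPM in LPS-tolerant BMDMs, with Cdh5 called higher and Tie1 at 0 reads, and their part in the results was not tested. In bulk samples, fewer cells of a type and less RNA per cell cannot be told apart.

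The transcription factor gene Myc gave the largest rise of any gene with more than 3 reads in every LPS-primed sample. Myc lies at chr15:61857227-61862223 of GRCm39 (plus strand). It had 32, 24 and 24 reads in LPS-primed and 328, 273 and 417 reads in LPS-tolerant samples, or 29.98 ± 11.5 and 375 ± 60.1 normalized counts (mean ± SD, n = 3; normalized counts are counts scaled to a common library size). Its log2FC was 3.70 (SE 0.26, adjusted p = 2.30e-07), and the groups did not overlap. Id3 and Id1 encode inhibitors of DNA binding, which block basic helix-loop-helix factors and are known targets of BMP and TGF-β signalling through SMAD proteins. Id3 rose from 28.4, 16.0 and 40.3 to 383, 376 and 296 normalized counts in replicates 1, 2 and 3 (log2FC 3.65, SE 0.30, adjusted p = 1.09e-06). Id1 rose from 52.7, 16.9 and 28.2 to 341, 340.4 and 247 (log2FC 3.31, SE 0.37, adjusted p = 2.07e-05), and Id2, of the same family, from 702 ± 219 to 3145 ± 637 (SD, n = 3). In all 3 Id genes every LPS-tolerant sample lay above every LPS-primed sample. Pmepa1, a SMAD target that restrains TGF-β signalling, had 22, 5 and 9 reads in LPS-primed and 99, 66 and 74 in LPS-tolerant samples (log2FC 2.78, SE 0.35).

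Olr1, which encodes the receptor LOX-1 for oxidised low-density lipoprotein, had 36.5, 9.40 and 14.1 normalized counts in LPS-primed and 135, 217 and 133 in LPS-tolerant replicates 1, 2 and 3. The log2FC was 3.09 (SE 0.35, adjusted p = 2.23e-05), and replicate 2 showed both the lowest level before and the highest level after the second dose. Zfp469, which encodes a zinc finger protein, rose from 2, 7 and 8 to 22, 43 and 48 reads (log2FC 2.78, SE 0.45). The other 4 of the 10 largest rises rested on few reads. Slc6a17, a vesicular amino acid transporter gene, had 0 reads in each LPS-primed sample and 8, 4 and 5 in LPS-tolerant samples. Against a floor of 3 reads per library its ratio was 1.99, which does not allow for counting error. Nr4a3, an immediate-early nuclear receptor gene, had 0 reads against 8, 1 and 3. Its ratio to the same floor was 1.45, but LPS-tolerant replicates 2 and 3 did not exceed that floor. St3gal6, a sialyltransferase gene, had 0, 2 and 1 against 21, 13 and 10 reads, a ratio of 15.04 with a 95% counting interval of 4.82 to 75.7. Counting intervals, here and below, pool the reads of each group and leave out the spread between replicates, so they are too narrow for it. Lyzl4, a lysozyme-like gene, had 0, 2 and 2 against 12, 4 and 17, a ratio of 8.46 (3.01 to 32.9). The calls of Slc6a17, Nr4a3 and Lyzl4 were lost in 5 of the 6 fits that each left out a sample, all but that without LPS-tolerant replicate 2, and that of St3gal6 was lost without LPS-primed replicate 1. None of these 4 was called without the replicate block (adjusted p between 0.0609 for St3gal6 and 0.106 for Nr4a3 by edgeR).

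Among the genes that fell, Nfil3 (chr13:53121245-53137010, minus strand) had the smallest p value, which was also the smallest of all tested genes. It encodes a basic leucine zipper repressor that LPS induces in macrophages and that takes part in the circadian clock. It had 1398, 856 and 1432 normalized counts in LPS-primed and 312, 157 and 223 in LPS-tolerant BMDMs, a log2FC of -2.42 (SE 0.14, adjusted p = 2.07e-08), and even the lowest LPS-primed sample lay above the highest LPS-tolerant sample. Il15 (chr8:83054226-83129874, minus strand), the gene of a cytokine that sustains NK and memory T cells, fell from 217, 148 and 148 to 21.0, 34.1 and 38.6 normalized counts (log2FC -2.39, SE 0.28, adjusted p = 3.17e-05). Ifitm5, of the interferon-induced transmembrane family, had 31, 31 and 27 reads before and 1, 3 and 7 after the second dose (log2FC -2.96, SE 0.58). Gvin3, which the annotation gives as a transcribed pseudogene of the very large interferon-inducible GTPases, had 35, 125 and 77 against 0, 14 and 14 reads (log2FC -3.00, SE 0.59), and its near-identical relatives make its count uncertain. These 4 genes stayed called in each fit that left out a sample.

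The other 6 of the 10 largest falls were less firm. Tnnt3, a troponin gene of skeletal muscle, had 18, 1 and 11 against 1, 0 and 0 reads, so that the groups overlapped, and its ratio (LPS-primed over LPS-tolerant) was 29.3 with a counting interval of 4.86 to 1194. Gm4951, an interferon-inducible GTPase gene, had 5, 31 and 14 against 0, 2 and 3 reads and Pbx4, a homeobox gene, had 13, 5 and 16 against 2, 0 and 2, which are ratios of 9.75 (3.91 to 31.3) and 8.29 (2.96 to 32.2). Arhgef37, a gene of a guanine nucleotide exchange factor, had 9, 18 and 24 against 0, 6 and 4 reads. Fam117a had 28, 17 and 34 against 4, 2 and 9 reads, and Ifi213, an interferon-inducible gene of the p200 family, 70, 311 and 76 against 19, 54 and 16. In LPS-primed replicate 2, Ifi213 and Gm4951 stood above the other 2 LPS-primed samples. Of the 6 fits that each left out a sample, 2 lost the call of Fam117a (those without LPS-primed replicate 3 or LPS-tolerant replicate 1). For Tnnt3, Gm4951, Pbx4, Arhgef37 and Ifi213, 5 lost it. The fit that kept the call was that without LPS-primed replicate 2 for Tnnt3 and Pbx4, without LPS-primed replicate 1 for Gm4951 and Ifi213, and without LPS-tolerant replicate 2 for Arhgef37. None of the 6 was called without the replicate block, with adjusted p from 0.0552 for Fam117a to 0.167 for Ifi213.

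**Figure D2:**
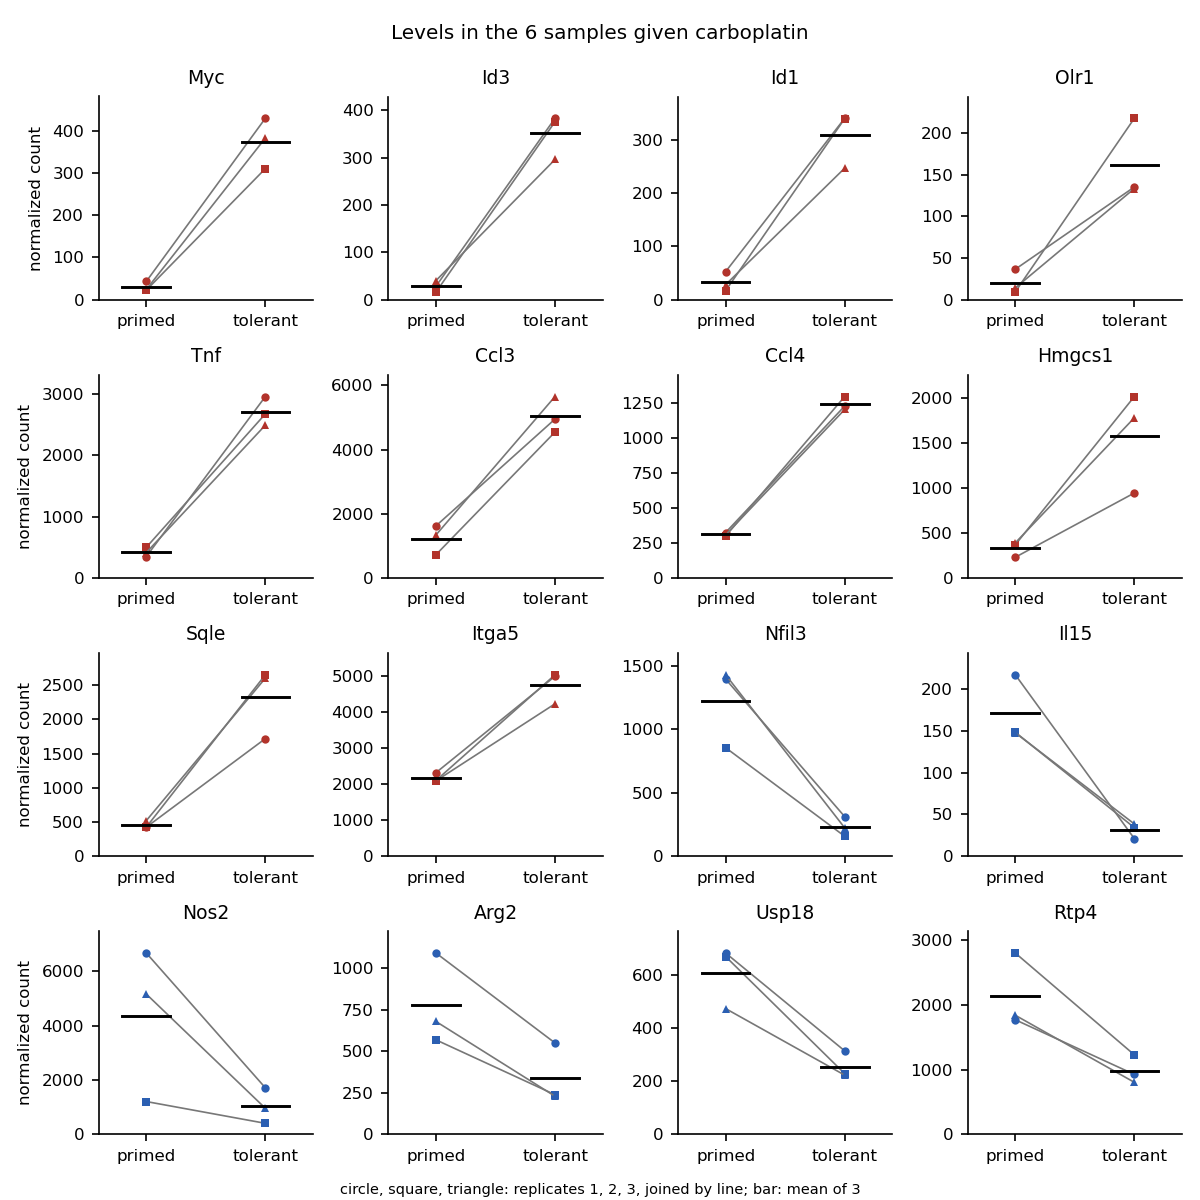
Normalized counts (y axis, from 0) of 16 genes in the 6 samples given carboplatin, LPS-primed on the left and LPS-tolerant on the right of each panel. Circles, squares and triangles are replicates 1, 2 and 3, lines join the same number, and bars are means of 3; in each panel all 3 lines slope the same way, upwards from Myc to Itga5 and downwards from Nfil3 to Rtp4.

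Genes of cholesterol synthesis and uptake formed the list with the largest share of higher genes. Of its 34 tested members, 17 rose and 0 fell, and the median log2FC was 1.37 against -0.012 over all tested genes. The enzyme genes that rose ran from Hmgcs1, which acts before mevalonate, through Idi1 (log2FC 2.58), Fdps (1.55) and Fdft1 (1.71) to sterol steps. Those steps were Sqle, Lss (1.48), Cyp51 (2.62), Msmo1 (1.80), Hsd17b7 (2.31) and Sc5d (1.45). Other enzyme genes between and after these were not called, among them Mvk, Pmvk, Mvd, Nsdhl, Ebp, Tm7sf2 and Dhcr7 (adjusted p from 0.0673 for Mvk to 0.938 for Tm7sf2). Hmgcs1 had 229.6, 368 and 389 normalized counts in LPS-primed and 944, 2016 and 1779.8 in LPS-tolerant replicates 1, 2 and 3, a log2FC of 2.23 (SE 0.19, adjusted p = 1.09e-06). Every LPS-tolerant sample was above every LPS-primed sample, and replicate 1 was the lowest of both groups. Sqle, which encodes squalene epoxidase, rose from 456 ± 55.3 to 2327 ± 526 normalized counts (SD, n = 3; log2FC 2.34, SE 0.22, adjusted p = 4.28e-06).

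Regulators and other members of the list rose as well. Srebf2, the gene of the factor that drives this pathway, rose by 1.10 on the log2 scale, Insig1, which holds that factor in the endoplasmic reticulum when sterols are plentiful, by 2.39, the sterol transfer protein gene Stard4 by 1.71, and the fatty acid synthase gene Fasn by 1.57. Without the replicate block, 15 of the 34 were called, all higher. Of the 10 tested genes of cholesterol efflux and other LXR targets, 0 rose and 2 fell (median log2FC -0.079). They were the transporters that export cholesterol: Abcg1 fell from 548, 437 and 503 to 239, 171 and 221 normalized counts (log2FC -1.25, SE 0.14, adjusted p = 1.95e-05) and Abca1 from 3912 ± 757 to 1852 ± 451 (log2FC -1.10, adjusted p = 0.0184). The call of Abca1 was lost without the replicate block (adjusted p = 0.263) and in 4 of the 6 fits that left out a sample (LPS-primed replicate 1 or 3, LPS-tolerant replicate 2 or 3). Exons of Hmgcs1 overlap exons of Nim1k, and those of Sqle exons of Washc5, on the opposite strand, and as the strand setting of the counting is not stated, reads of such pairs cannot be told apart. Of the other genes named here, St3gal6, Xbp1, Tgm2, Mmp19, Irf5, Irf7, Setdb2 and Cdc42bpa overlap a tested gene in the same way. Overlaps were not looked up for every gene named, and Idi1, Fdps, Lss and Cyp51 are among those left out.

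The promoter of Hmgcs1 is shown because it holds a sterol response element, the site that SREBP-2 binds, searched as TCACNCCAC on both strands in the 300 bases before the start of the main transcript. The stretch lies on the plus strand at chr13:120151732-120151781 of GRCm39, with the element in capitals.
Hmgcs1: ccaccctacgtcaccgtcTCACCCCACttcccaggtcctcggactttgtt
This motif stood in 3 of the 34 promoters of the list (Hmgcs1, Fasn and Acaca, 8.82%), in 1.53% of the promoters of higher genes, 1.15% of those of lower genes and 1.16% of the 11004 promoters of tested genes. Acaca, which encodes acetyl-CoA carboxylase, was not called. A match is a description of the letters and not evidence of binding.

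Immediate-early transcription factor genes, which respond to LPS within the first hour without new protein, had 9 higher and 1 lower gene among 26 tested (median log2FC 0.34). Without the replicate block 3 were called, all higher. Beside Myc and Nr4a3, Egr1 (log2FC 2.19), Fosl1, Nr4a1 (1.87), Srf, Maff (0.87), Klf4 (0.66) and Klf6 (0.66) rose, and Fosl2 fell by 0.87. The call of Klf6 was lost without LPS-tolerant replicate 3. The AP-1 subunit gene Fosl1 had 138, 24.4 and 39.2 normalized counts in LPS-primed and 521, 168 and 139.7 in LPS-tolerant replicates 1, 2 and 3 (log2FC 2.11, SE 0.36, adjusted p = 0.00123, and 0.124 without the replicate block), with replicate 1 highest in both groups. It overlaps Ccdc85b on the opposite strand. Srf, the factor that binds serum response elements, rose from 345 ± 3.14 to 685 ± 82.8 (SD, n = 3; log2FC 0.98, SE 0.17). Among 29 tested genes of macrophage lineage factors and receptors, 6 rose (Id3, Id1, Id2, Hhex, Irf5 and Bhlhe40) and 3 fell (Tcf4, Bach1 and Csf3r), with a median log2FC of 0.18. Without the block 4 rose and 0 fell. Irf5, a factor that promotes inflammatory gene expression, rose from 1597 ± 47.4 to 2496 ± 332 (log2FC 0.64, SE 0.11).

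Among cytokine genes, Tnf (chr17:35418357-35420983, minus strand) rose and few others did. Tnf had 348, 499 and 414 normalized counts in LPS-primed and 2961, 2677 and 2494 in LPS-tolerant replicates 1, 2 and 3, a log2FC of 2.66 (SE 0.24, adjusted p = 2.93e-06). The spread within each group was small beside the 6.33-fold difference between them. Of 28 tested cytokine genes, 3 rose (Tnf, Csf3 and Tgfb1) and Il15 alone fell, with a median log2FC of 0.20. Csf3, the gene of G-CSF, had 109, 47 and 44 reads against 612, 94 and 239, which overlap. Its call (adjusted p = 0.0475) was lost without the replicate block (adjusted p = 0.32) and without any of the 6 samples. Tgfb1 rose by 0.41 (adjusted p = 0.0149), and its call was lost without the block (adjusted p = 0.186) and in 4 fits that left out a sample (replicate 1 or 3 of either group). Without the block, 1 cytokine gene was higher and 1 was lower.

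Il6 was not called. It had 370, 55.5 and 164 normalized counts in LPS-primed and 399.9, 55.8 and 75.3 in LPS-tolerant replicates 1, 2 and 3, with replicate 1 highest in both groups (log2FC -0.33, SE 0.47, adjusted p = 0.725). Il1b, the gene of interleukin-1β, had 42670.3, 7788 and 35596 against 28239, 4650 and 12205 (log2FC -0.96, SE 0.49, adjusted p = 0.246): it was lower in each of the 3 pairs, but replicates differed more than the groups. The gene of the anti-inflammatory cytokine Il10 had 4, 24 and 5 against 39, 20 and 25 reads and was not called (adjusted p = 0.0702). Il12b had at most 3 reads in any of the 6 samples. Ifnb1, the gene of interferon-β, had 0 reads in LPS-primed and 0, 1 and 4 in LPS-tolerant samples and was too low to be tested.

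Of 21 tested chemokine genes, 6 rose and 0 fell, with a median log2FC of 0.25. Ccl3 and Ccl4, which attract monocytes and T cells, rose together. Ccl3 had 1622, 724 and 1339 normalized counts before and 4954, 4549 and 5656 after the second dose (log2FC 2.11, SE 0.23, adjusted p = 1.60e-05), and Ccl4 had 324, 299 and 308 and 1227, 1295 and 1203 (log2FC 2.005, SE 0.22, adjusted p = 1.75e-05). Neither gene overlapped between the groups. The monocyte attractants Ccl2 and Ccl7 were called with the block alone: Ccl2 rose from 3209, 1529 and 865 to 12579.6, 4763 and 7191 (log2FC 2.22, adjusted p = 4.21e-04, and 0.189 without the block), and Ccl7 had a log2FC of 1.75 (adjusted p = 0.00245, and 0.394 without it). For the neutrophil attractants Cxcl2 and Cxcl1 the rise was smaller. Cxcl2 had 5992, 2227 and 3392 and 9345, 4851 and 6635 normalized counts (log2FC 0.91, SE 0.17, adjusted p = 0.00293, and 0.397 without the block), and Cxcl1 had 2403, 571 and 1089.8 and 3922, 1237 and 1711 (log2FC 0.82, adjusted p = 0.039). Both lay highest in replicate 1 and lowest in replicate 2 before and after the dose, so that the groups overlapped although each pair was higher, and Cxcl1 was not called without the block either. Cxcl10 (12.2, 32.0 and 49.3 against 40.6, 109 and 87.3, adjusted p = 0.115) and Ccl5 (8928, 8998 and 7506 against 7192, 6183 and 3938, adjusted p = 0.171), which belong to the interferon-dependent chemokines, were not called. Without the block, 2 chemokine genes were higher.

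The Cxcl1 promoter is shown for its NF-κB site, searched as GGGANNTTCC on both strands. The stretch on the plus strand at chr5:91039004-91039063 (GRCm39) reaches from 90 to 31 bases before the start, and its capitals mark 2 matches that overlap by 9 bases.
Cxcl1: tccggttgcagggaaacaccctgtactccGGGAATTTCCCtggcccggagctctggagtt
The motif was in 6 of 21 promoters of tested chemokine genes (28.6%), in 3.05% of promoters of higher genes, in 1.15% of those of lower genes and in 1.6% of all promoters. The 6 were Ccl5, Cxcl1, Cxcl2, Cxcl3, Cxcl5 and Cxcl10, of which only Cxcl1 and Cxcl2 were called higher. Ccl2, Ccl3, Ccl4 and Ccl7, which also rose, had no match.

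Genes of the LPS receptor, its adaptors and NF-κB subunits changed little: of 32 tested, 2 rose and 3 fell, with a median log2FC of 0.070. Irak2 (0.51) and Nfkb1 (0.51) rose, and Irak4 (-0.47), Map3k8 (-0.95) and Ticam2 (-1.43) fell. Of these, Ticam2, which encodes the TRIF-related adaptor TRAM, shares exons with Tmed7 on the same strand, so that its reads may belong to either. It was the only gene of this list called without the block, and the fit without LPS-tolerant replicate 3 lost it, as the fit without LPS-primed replicate 2 lost Irak2. The call of Nfkb1 was lost in 4 of the 6 fits that left out a sample. Genes listed as negative regulators moved in both directions, with 10 higher and 5 lower among 46 tested (median log2FC 0.23), and 3 and 3 without the block. Dusp4, a phosphatase gene that limits ERK activity, rose from 243, 115 and 178 to 611, 668 and 838 normalized counts (log2FC 2.02, SE 0.27, adjusted p = 1.25e-04), and Dusp5 (1.45), Dusp6 (0.97) and Spry2 (1.18), which restrain the same pathway, rose as well. Tnfaip3, the gene of the NF-κB inhibitor A20, rose from 836, 1048 and 948 to 1929, 2299 and 1834 (log2FC 1.10, SE 0.11, adjusted p = 7.74e-06). Nfkbia, which encodes IκBα, was not called (log2FC 0.37, SE 0.12, adjusted p = 0.0632).

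The 5 genes of the negative regulator list that fell were Zfp36l1, Il4ra (-1.46), Trim30a (-1.25), Bcl3 and Arid5a (-0.95). The list is broad, and Il4ra and Arid5a are not established negative regulators of TLR signalling. Zfp36l1, whose protein sends AU-rich mRNAs to decay, had 871, 733 and 709 normalized counts before and 176, 158 and 254 after the second dose (log2FC -1.97, SE 0.30, adjusted p = 4.11e-04). Bcl3, which holds NF-κB p50 on DNA, fell from 824 ± 63.8 to 377 ± 149 (log2FC -1.18, SE 0.20). Neither overlapped between groups, and both stayed called in all 6 fits that left out a sample.

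Interferon-stimulated genes that changed all fell. Of 59 tested, 14 fell and 0 rose, 57 had a log2FC below 0, and the median was -0.74. The genes that fell include sensors and effectors of antiviral defence: Ddx58 (which encodes RIG-I), Oas2, Oasl2, Parp9, Parp14, Slfn1, Xaf1 and Gbp7, and Usp18, whose protein removes ISG15 and dampens the interferon receptor. Ddx58 fell from 964, 1582 and 1094 to 488, 676 and 425 normalized counts (log2FC -1.20, SE 0.25, adjusted p = 0.00671). It alone of the 59 was also called without the replicate block (adjusted p = 0.0345). Usp18 fell from 683, 670.1 and 474 to 315, 229 and 223 (log2FC -1.26, SE 0.32, adjusted p = 0.0184) and Rtp4, which encodes a receptor transporter protein, from 1772, 2804 and 1842 to 927, 1229 and 805 (log2FC -1.12, SE 0.28, adjusted p = 0.0179). The groups did not overlap for these 3 genes, and LPS-primed replicate 2 was highest for Ddx58 and Rtp4. Without the block, the adjusted p was 0.174 for Usp18 and 0.0962 for Rtp4. Both calls were lost in 4 of the 6 fits that left out a sample: for both genes those without LPS-primed replicate 2 or 3 or LPS-tolerant replicate 1, and that without LPS-tolerant replicate 2 for Usp18 or 3 for Rtp4. Irf7, a master regulator of interferon genes, was not called (log2FC -0.50, SE 0.30, adjusted p = 0.337).

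Promoters of 4 of the genes that fell are shown for their interferon-stimulated response elements, which bind STAT and IRF factors and were searched as GAAANNGAAA on both strands. They lie on GRCm39 at chr8:83129852-83129881 (minus strand) for Il15, chr1:173426882-173426941 (minus) for Ifi213, chr16:23428576-23428645 (plus) for Rtp4 and chr6:121222767-121222826 (plus) for Usp18. The first 3 end at the base before the start, the last ends 31 bases before it, and capitals mark the matches.
Il15: acccaaggtcctTTTCCGTTTCctcccggt
Ifi213: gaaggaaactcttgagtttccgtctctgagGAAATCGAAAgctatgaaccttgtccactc
Rtp4: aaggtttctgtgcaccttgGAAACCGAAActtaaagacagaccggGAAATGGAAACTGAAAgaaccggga
Usp18: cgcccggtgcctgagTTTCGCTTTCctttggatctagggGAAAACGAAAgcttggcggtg
Rtp4 has 3 matches, 2 of which overlap, and Usp18 has 2 on opposite strands. Other transcripts of Il15 start inside its stretch. The motif was in 39.7% of 58 promoters of the interferon list, 6.7% of promoters of lower genes, 2.2% of those of higher genes and 3.74% of all promoters. Other motifs differed less between the promoters of higher, lower and all tested genes: AP-1 (TGANTCA) was in 7.46%, 7.16% and 5.92%, the cyclic AMP response element (TGACGTCA) in 1.53%, 2.31% and 2.2%, the E-box (CACGTG), which MYC can bind, in 11.2%, 8.78% and 8.92%, and the GC-rich SMAD site (GGCGCC) in 15.1%, 12.5% and 14%.

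Among 17 tested genes of nitric oxide, arginine, itaconate and oxidant enzymes, 1 rose and 2 fell (median log2FC 0.063). Nos2, the inducible nitric oxide synthase gene, had 6664, 1208 and 5155 normalized counts in LPS-primed and 1711, 408 and 959 in LPS-tolerant replicates 1, 2 and 3 (log2FC -2.01, SE 0.28, adjusted p = 2.34e-04). Replicate 2 was lowest in both groups, so that the groups overlapped, and the call was lost without the replicate block (adjusted p = 0.156). Arg2, an arginase gene, fell from 1093, 569.5 and 680.3 to 551, 239 and 229.7 (log2FC -1.25, SE 0.25, adjusted p = 0.0038, and 0.179 without the block), and it overlaps Vti1b on the opposite strand. Gch1, whose enzyme starts the synthesis of the cofactor that NOS2 needs, rose from 402 ± 42.6 to 759 ± 44.8 (SD, n = 3; log2FC 0.92, SE 0.17, adjusted p = 0.0024). It was the only gene of these 17 called without the block. The remaining 14 tested genes, which include the other arginase gene Arg1 (log2FC -0.28, adjusted p = 0.623), were not called.

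In glycolysis and the hypoxia response, 0 of 34 genes rose and 3 fell: Pfkfb3, Hif1a and Ddit4 (median log2FC -0.035). Pfkfb3, which sets the glycolytic rate, fell from 2565, 2668 and 2949 to 999, 1323 and 1173 normalized counts (log2FC -1.24, SE 0.23, adjusted p = 0.00216), without overlap. Hif1a fell from 11417 ± 1923 to 6758 ± 1007 (log2FC -0.75, SE 0.14, adjusted p = 0.00314, and 0.13 without the block). Pfkfb3 alone of the 3 was called without the block. Among 17 clock genes, 2 rose (Bhlhe40 and Cry1) and 3 fell (Nfil3, Nr1d2 and Per1), with a median log2FC of -0.15. Of these, Nfil3 alone was called without the block.

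Ribosome biogenesis genes, many of which MYC is known to activate, rose by small amounts. Of 45, all tested, 20 rose and 0 fell, 42 had a log2FC above 0, and the median was 0.43. Tsr1, needed to mature the small subunit, rose from 143, 269.7 and 157 to 315, 549.8 and 563 normalized counts (log2FC 1.33, SE 0.19, adjusted p = 2.04e-04), and Nop58, a core protein of box C/D particles, from 363, 523 and 350.2 to 823, 963 and 942 (log2FC 1.15, SE 0.16, adjusted p = 2.50e-04). Within each group the replicates spread by less than the step between groups. The nucleolar genes Ppan and Gnl3 rose by 1.09 and 0.95, and Tsr1 and Gnl3 overlap other tested genes on the opposite strand. Without the block 6 of the 45 were called, all higher.

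Surface receptor, adhesion and costimulation genes had 9 higher and 4 lower among 46 tested (median log2FC 0.23). Itga5, the fibronectin receptor subunit, rose from 2311, 2094 and 2084 to 4981, 5021 and 4218 normalized counts (log2FC 1.13, SE 0.11, adjusted p = 4.28e-06), and the fatty acid receptor gene Gpr84 from 951 ± 199 to 2291 ± 252 (log2FC 1.29, SE 0.19). Olr1, Plaur (1.71), Adora2a (1.18), C5ar1 (1.10), Cd44 (0.69), C3ar1 (0.57) and P2ry6 (0.51) rose too. Among the 4 that fell were the chemokine receptor gene Ccr2 (-1.69), the interleukin-1 receptor gene Il1r1 (-1.50) and Cd274 (-0.94), which encodes PD-L1. Without the block, 5 were higher and 3 lower.

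Scavenger, lectin and phagocytic receptor genes were called equally in both directions, 3 of 24 higher (Colec12, Clec5a and Lgals3) and 3 lower (Mertk, Fcgr1 and Axl), with a median log2FC of 0.0074. Without the block, Colec12 alone was called. Mertk, which takes up dying cells, fell from 157, 400.4 and 281 to 86.5, 163 and 127 normalized counts (log2FC -1.12, SE 0.19, adjusted p = 0.00138, and 0.18 without the block). Of 27 secreted protease, matrix and acute phase genes, 3 rose and 1 fell (median log2FC 0.17). Plau, the gene of urokinase, whose receptor is the product of Plaur, rose from 71.6, 105 and 43.3 to 404, 454 and 301 (log2FC 2.47, SE 0.40, adjusted p = 6.88e-04), without overlap. Tgm2 (0.99) and Slpi (0.84) rose and Mmp19 (-0.94) fell, and these 3 lost their call without the block. The call of Mmp19 was also lost without replicate 1 or 3 of LPS-primed or replicate 2 or 3 of LPS-tolerant BMDMs.

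Carboplatin damages DNA, so p53 targets and cell cycle genes were looked at in the same contrast, in which both groups carried the drug. Of 35 p53 targets, 4 rose and 5 fell (median log2FC -0.024). Those that rose, Ccnd1 (2.62), Plk2 (1.37), Plk3 and Rap2b (0.55), include the cyclin D1 gene. Cdkn1a (log2FC -0.40) and Mdm2 (0.19), which encode the cell cycle inhibitor p21 and the p53 ubiquitin ligase, were not called. Fas (-0.95), Dram1 (-0.88), Sesn2 (-0.93), Btg2 (-1.26) and Trp53inp1 (-1.74) fell. Without the block, 3 were higher and 1 lower. Among 42 S-phase genes Pcna rose and 1 gene fell, and among 54 G2/M-phase genes Gas2l3 and Tubb4b rose and 0 fell, although the list medians were -0.25 and -0.22. Without the block, 0 genes of both phases were called.

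Stress and lipid mediator genes changed little. Of 26 NRF2 and haem response genes, 3 rose (Srxn1, Txnrd1 and Gclc, by 0.88, 0.53 and 0.50 on the log2 scale) and 0 fell (median log2FC 0.13). Of 33 amino acid and ATF4 response genes, 0 rose and 2 fell (Ddit4 and Sesn2, median log2FC -0.017), and of 27 heat shock and unfolded protein genes Bag3 rose and Xbp1 fell (median log2FC -0.033). None of these was called without the block. Of 17 prostaglandin and leukotriene genes, 0 were called in either direction by edgeR (median log2FC 0.038), with Ptges, the enzyme that makes prostaglandin E2, nearest (1213, 611 and 702 against 1829, 1437 and 1425 normalized counts, adjusted p = 0.0701).

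Of the 11 genes that were also chosen for RT-qPCR, 9 were tested here (median log2FC -0.11). Tnf rose and the other 8 were not called (adjusted p from 0.0556 for Cd40 to 0.845 for Saa3). Saa3, an acute phase gene, was the most abundant of them, with 457445 ± 45046 normalized counts in LPS-primed and 435437 ± 22684 in LPS-tolerant BMDMs (SD, n = 3; 95% interval of the log2FC -0.37 to 0.25). For Cd40, a costimulatory receptor gene, the values were 41.9, 94.0 and 66.4 and 105, 114 and 124 (log2FC 0.74, interval 0.25 to 1.23), and each LPS-tolerant sample lay above each LPS-primed sample. Marco, a scavenger receptor gene, had 1019.7, 5465 and 4646 and 1879, 7002 and 5814 normalized counts, lowest in replicate 1 both times. Among genes for H3K9 methylation, Suv39h1 (-0.61, interval -1.25 to 0.024), Ehmt1 (-0.11, interval -0.37 to 0.15) and Cbx5, which encodes HP1-α (-0.73, interval -1.42 to -0.026), were not called. Setdb2 and Kdm4d had at most 5 reads in any of the 6 samples and were too low to be tested. In the wider list of 22 tested H3K9 methylation genes, Jmjd1c rose and Cbx3 and Setdb1 fell, by 0.70 and 0.33 on the log2 scale (median log2FC -0.17). Only Cbx3 was called without the block, the calls of Jmjd1c and Setdb1 were lost without any of the 6 samples, and exons of Cbx3, Setdb1 and Cbx5 overlap other tested genes on the opposite strand.

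**Figure D3:**
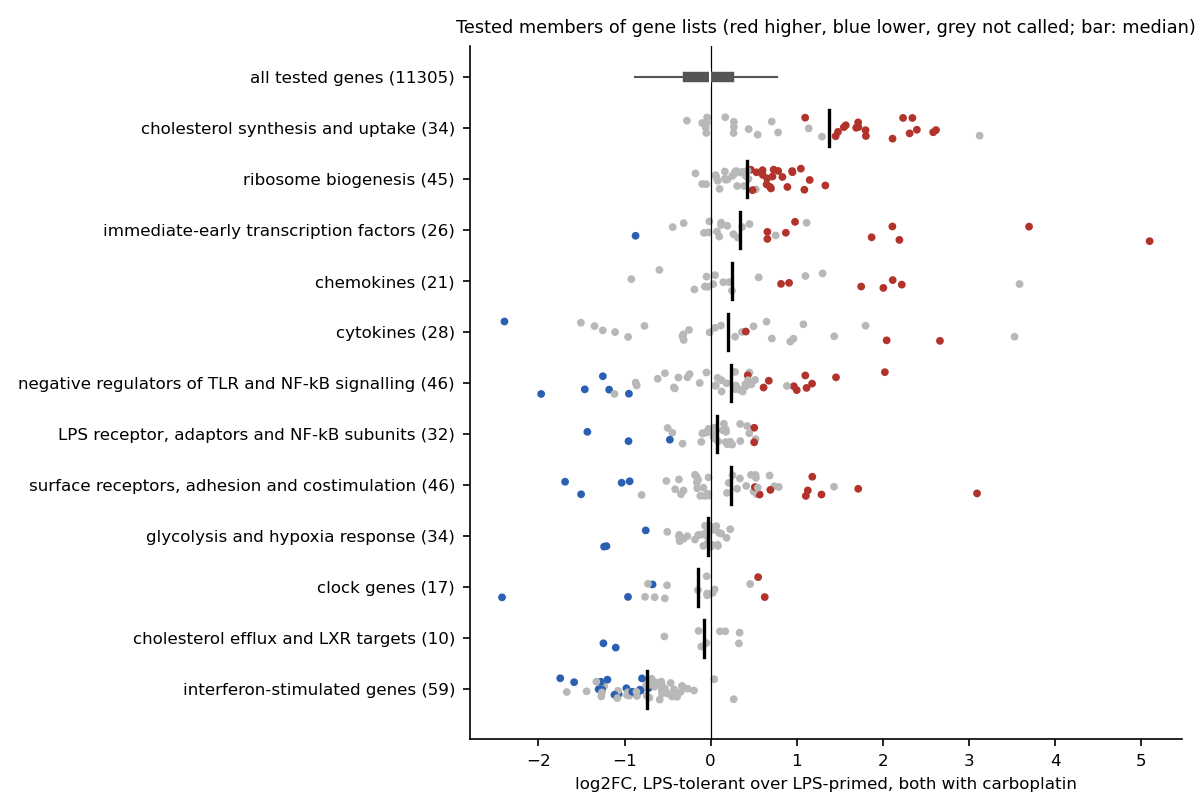
The log2FC of the second dose under carboplatin (x axis) for the tested members of 12 gene lists, with the number tested in brackets. Each point is a gene, red where higher, blue where lower and grey where not called, black bars are list medians, and for all tested genes the thick bar spans the 25th to 75th and the line the 5th to 95th percentile. Cholesterol synthesis lies farthest to the right with 17 red points and interferon-stimulated genes farthest to the left with 14 blue points.

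The second dose was then compared with the same dose given without carboplatin, in 6 other samples. There, the second dose raised 1093 genes (9.67%) and lowered 941 (8.32%), and 59 higher (0.522%) and 49 lower (0.433%) DEGs passed the |log2FC| limit. Of the 1040 genes called under carboplatin, 1034 had the same sign without it, 849 (81.6%) were called in the same direction, and 0 were called in the opposite one. Looked at from the other side, 45 of the 59 higher DEGs (76.3%) and 20 of the 49 lower DEGs (40.8%) without carboplatin were called the same way with it. For the 59 and the 49, the median log2FC was 2.66 and -2.30 without the drug, where they were chosen, and 2.11 and -1.43 with it. Pearson's r across the 11305 genes was 0.647 and Spearman's rho 0.696, as a description, since genes of a library are not independent.

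The difference itself was tested as an interaction over the 4 groups, and 0 genes were called (0%) by edgeR, DESeq2 and limma-voom. At an unadjusted p under 0.05 there were 330 genes, fewer than the 565.2 expected if none differed, and the smallest adjusted p was 0.704, for Stfa3, Cdc42bpa and Csta2. The cysteine protease inhibitor gene Stfa3 had a log2FC of 0.36 with and 2.22 without carboplatin (difference -1.86, 95% interval -2.59 to -1.13, not corrected for choosing it). For Cdc42bpa, a kinase gene, the difference was -1.10, and for Csta2, another cysteine protease inhibitor gene, -1.13. A fit of the 12 samples of these 4 groups alone called 1 gene, Stfa3, with a difference of -1.87 and an adjusted p of 0.041 by edgeR. A p past the threshold for no gene does not show that the drug left the effect as it was, and the intervals say what could have been missed. For Tnf the second dose gave a log2FC of 2.66 with and 2.92 without carboplatin, and the difference was -0.26 (95% interval -0.93 to 0.42).

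The difference was -0.10 (-0.88 to 0.68) for Myc, 0.16 (-0.37 to 0.70) for Hmgcs1, -0.18 (-0.58 to 0.22) for Nfil3, -0.34 (-1.15 to 0.48) for Il15 and -0.0013 (-0.93 to 0.93) for Usp18. It was -1.14 (-2.59 to 0.31) for Il6, whose log2FC without carboplatin was 0.81. The difference was below 0 for each of the 6 chemokine genes that rose, from -0.66 for Ccl4 (-1.31 to -0.0055) to -0.47 for Cxcl2 (-0.98 to 0.043), and for Fosl1 it was -1.70 (-2.90 to -0.49). For Ccl4, Fosl1 and a few other named genes, among them Id1 (-1.26, -2.51 to -0.0038) and Abcg1 (0.47, 0.058 to 0.89), the interval left out 0 before any correction, while the adjusted p of the interaction was at least 0.704 for every gene. Of the genes with the largest changes under carboplatin, Lyzl4 and Pbx4 had a log2FC of -0.057 and 0.42 without it, both on few reads.

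**Figure D4:**
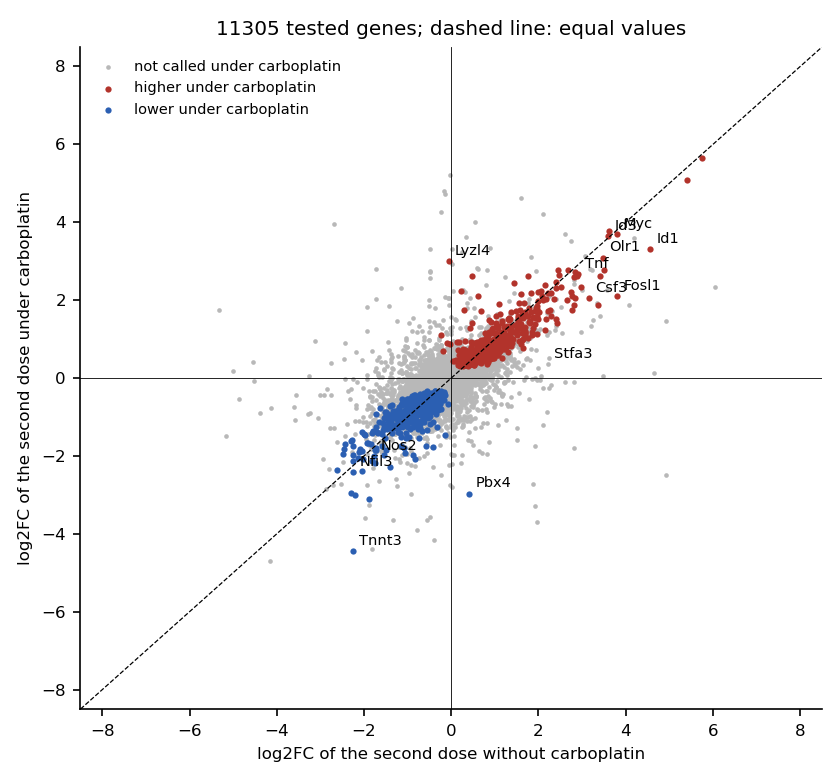
The log2FC of the second dose without carboplatin (x axis) and under carboplatin (y axis) for the 11305 tested genes, with genes called under carboplatin in red (higher) and blue (lower). The dashed line marks equal values; 1034 of the 1040 coloured points have the same sign on both axes, and Lyzl4 and Pbx4 lie away from the line.

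The same list counts without carboplatin were 20 higher and 0 lower for cholesterol synthesis, 30 and 0 for ribosome biogenesis, 11 and 1 for immediate-early factors, 7 and 0 for chemokines, 6 and 1 for cytokines, and 0 and 25 for interferon-stimulated genes. Over all tested genes 9.67% were higher and 8.32% lower there, more than under carboplatin (5.28% and 3.92%). The median log2FC of the chemokine list was 1.18 there and 0.25 under carboplatin, that of the cytokine list 0.64 and 0.20, and that of the interferon list -0.87 and -0.74. These counts stand side by side and no difference between lists was tested.

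The dose of 10 ng/ml for 3 h acts as a first dose in BMDMs that have not met LPS, and this response shares no sample with the comparison under carboplatin. As a first dose it raised 3331 genes (29.5%) and lowered 3817 (33.8%). The effect of the second dose under carboplatin differed from it at 4671 genes, higher at 2275 (20.1%) and lower at 2396 (21.2%), and at 3112 without the replicate block. Library size alone in place of TMM turned this split to 3591 higher and 1693 lower. Of the 742 genes with a log2FC over 2 after the first dose, 119 (16%) also rose with the second dose and 43 (5.8%) fell, and their median log2FC was 3.37 at the first dose, where they were chosen, and 0.21 at the second. Of the 1040 genes called at the second dose, 622 (59.8%) were called the same way at the first and 209 (20.1%) the opposite way. Across genes the 2 responses had a Pearson's r of 0.232 and a Spearman's rho of 0.310, again a description.

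Tnf rose both times, and by less at the second dose. It went from 89.4 ± 36.6 to 9520.1 ± 4594 normalized counts with the first dose (SD, n = 3) and from 420.4 ± 75.5 to 2711 ± 235 with the second, and the log2FC differed by -4.05 (SE 0.34, adjusted p = 4.43e-08). LPS-primed BMDMs with carboplatin held more Tnf than unstimulated BMDMs, and LPS-tolerant ones less than BMDMs after a single dose. Cxcl2 had 40.4 ± 13.8 normalized counts in unstimulated and 12133 ± 3358 in LPS-stimulated BMDMs, against 3871 ± 1928 and 6944 ± 2263 here, so that the smaller second step (difference -7.34, adjusted p = 6.25e-12) started from a higher level. Olr1 had at most 1 read in any unstimulated sample and 3186 ± 1403 normalized counts after the first dose, against 20.0 ± 14.5 and 162 ± 48.1 here. Myc rose by 4.87 on the log2 scale at the first dose and 3.70 at the second (difference -1.17, adjusted p = 0.0139). Il6 went from 0 reads in each unstimulated sample to 783 ± 573 normalized counts after the first dose.

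Some genes turned direction between doses. Nos2 rose from 4.28 ± 2.92 to 2673 ± 753 normalized counts at the first dose and fell at the second, and the log2FC differed by -11.53 (adjusted p = 6.92e-11). Nfil3 rose by 3.96 and fell by 2.42, a difference of -6.38 (SE 0.21, adjusted p = 3.55e-13). Il15 went from 243 ± 40.7 to 1376 ± 173 and then from 171 ± 40.0 to 31.2 ± 9.16, a final level below that of unstimulated BMDMs. Ifitm5 (difference -5.27, adjusted p = 4.00e-05) and Arg2 (-7.19, adjusted p = 5.95e-09) turned in the same way.

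The 5 genes with the smallest p among those whose second-dose effect lay lower were Tnfaip3, Mmp14, Nfil3, Rnd1 and Cxcl2. Tnfaip3 rose both times, by 7.02 and then 1.10 on the log2 scale. Mmp14, a matrix protease gene, rose by 7.73 at the first dose, stood at 4379 ± 1019 normalized counts in LPS-primed BMDMs with carboplatin and had a log2FC of 0.057 at the second (adjusted p = 0.842). Rnd1, a gene of a small GTPase, rose by 9.59 at the first dose but had 93.2, 52.6 and 107 and 109, 46.7 and 84.5 normalized counts here, and thus neither a high level nor a call at the second. Those whose effect lay higher were Cln8, Plekhm1, Tfeb, Plekho1 and Apobec1, with differences from 2.61 for Plekho1 to 4.37 for Tfeb. All 5 fell at the first dose: Tfeb, the gene of a master regulator of lysosomes, from 616 ± 33.6 to 35.1 ± 4.80 normalized counts, while it had 215 ± 37.9 and 256 ± 20.1 before and after the second dose and was not called there (adjusted p = 0.349). Cln8 and Plekhm1 rose slightly at the second dose, by 0.55 and 0.46. Their calls were lost without the replicate block (adjusted p = 0.158 and 0.214), that of Cln8 also without LPS-primed replicate 2 or LPS-tolerant replicate 3, and that of Plekhm1 without any of the 6 samples.

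Of the 34 cholesterol synthesis and uptake genes, the first dose raised 14 and lowered 5, against 29.5% and 33.8% of all tested genes (median log2FC 0.37), and the second-dose effect was higher at 16 genes and lower at 1 in the test of the difference, against 20.1% and 21.2% of all tested genes. Hmgcs1 was among them (1.16 and 2.23, difference 1.07, adjusted p = 0.00239). In the chemokine and cytokine lists, 14 of 21 and 22 of 28 genes had a lower effect at the second dose and 0 a higher one, and in the interferon list 36 of 59 were lower and 0 higher. The first dose raised 45 of the 45 ribosome biogenesis genes, and 39 of them had a lower effect at the second.

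**Figure D5:**
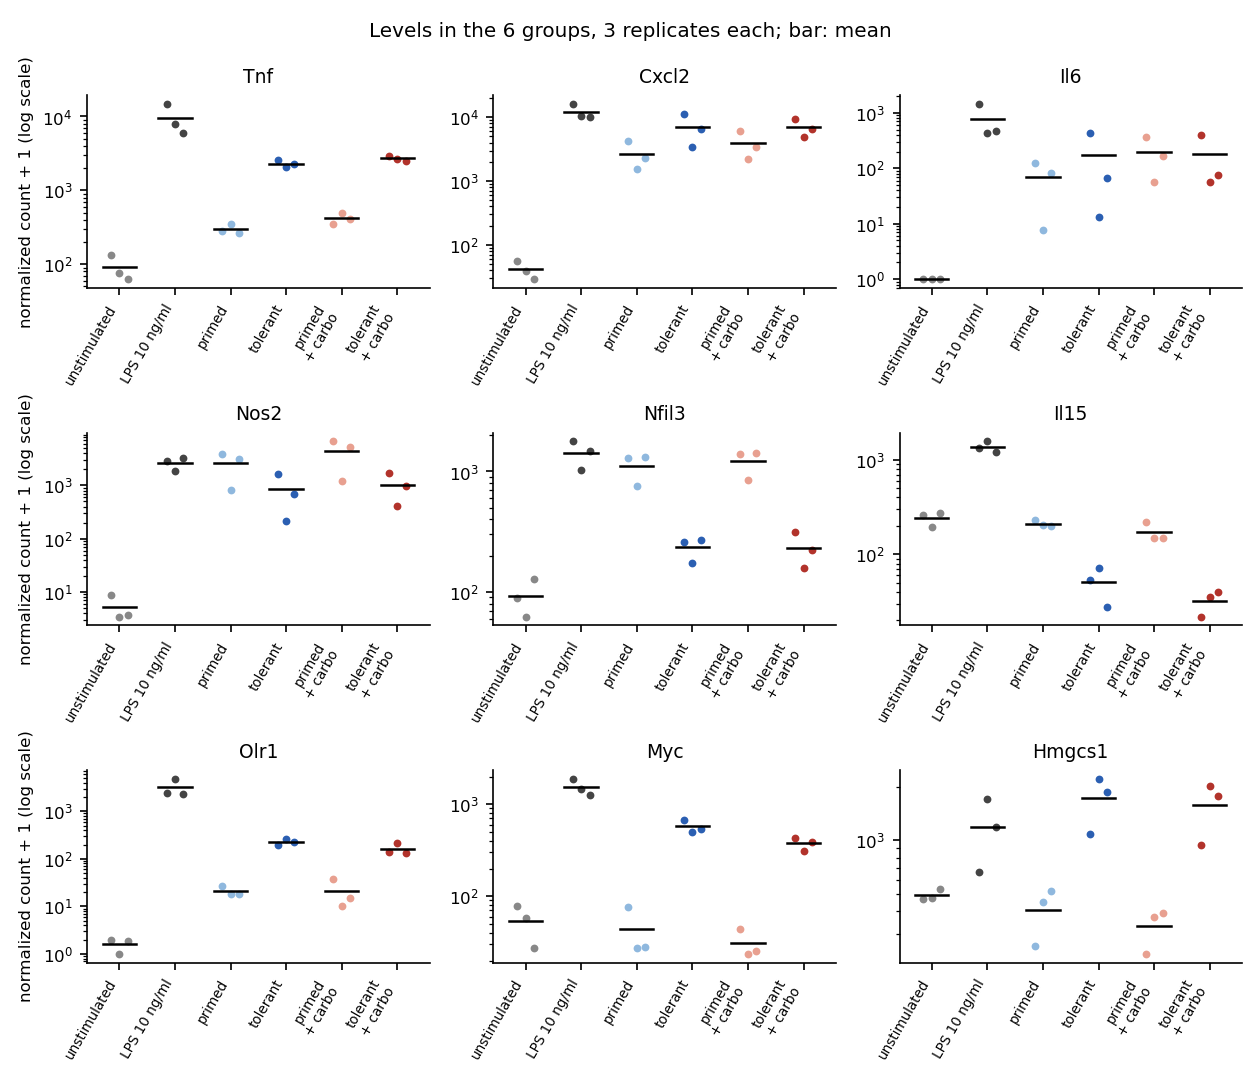
Normalized counts plus 1 (y axis, log scale) of 9 genes in all 18 samples, with 3 points per group and a bar at their mean. From left to right the groups are unstimulated BMDMs, BMDMs given LPS at 10 ng/ml, LPS-primed and LPS-tolerant BMDMs, and the last pair of groups again with carboplatin. Tnf, Cxcl2, Olr1 and Myc step up from LPS-primed to LPS-tolerant BMDMs by less than from unstimulated to LPS-stimulated ones, and Nos2, Nfil3 and Il15 step down.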

How the data were processed

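RNA was sequenced from 18 BMDM samples in 6 groups of 3. The authors aligned paired reads to GRCm39 with HISAT2 and deposited raw read counts per gene from HTSeq. Tool versions, the gene annotation and the strand setting are not given in the sources used here. Summary lines at the foot of each file were removed. In the 6 samples they held 26.5% to 29.8% of read pairs as pairs on no gene. They also held ambiguous, low-quality, unaligned and multiply aligned pairs, so that 56.0% to 58.5% of read pairs were counted on genes. Of 22852 genes, 11305 passed a filter (at least 10 counts, 15 in total, edgeR's filterByExpr). All 18 samples were fitted with edgeR 4.0.16 in R 4.3.3 (TMM scaling, quasi-likelihood F test, 6 group means and the replicate number as a block), p values were adjusted by the Benjamini-Hochberg method over all tested genes, and comparisons of effects were contrasts of the same fit. Replicate numbers were taken to pair the samples: after subtracting group means, samples with a shared number correlated at 0.308 to 0.488 here and at 0.0631 or more between any other groups. Samples with different numbers correlated at -0.459 to 0.0346 here and at -0.496 to 0.285 over all groups. The labels do not say that a shared number is a shared culture or mouse. With the block, p values measure the spread left between these samples once differences between replicate numbers are taken out. DESeq2 1.42.0, limma-voom 3.58.1, other scalings and filters, no block and leaving out each sample were tried.

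Named genes are the 10 largest rises and falls past |log2FC| > 2 with all 3 pairs in one direction, the 4 smallest p values of each list, the RT-qPCR genes, and the smallest p values of each comparison of effects. Other genes were named after their values were seen, and some genes of these rules are not reported here. The comparison and the 25 gene lists were chosen with earlier results of these data known. Promoters are the 300 bases before the start of a transcript on GRCm39 with GENCODE vM39 and were read for 11004 (97.3%) of the tested genes.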

Additional observations from a re-analysis of the deposited data

Results flagged for a closer look

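The effect of the second dose under carboplatin was set against that of the first dose by a test of the difference itself, and 4671 genes differed (adjusted p under 0.05, edgeR). Named genes among them are given here by their difference, second minus first log2FC. It was above 0 for Tfeb (4.37), Plekhm1 (3.69), Cln8 (3.67), Apobec1 (3.16), Plekho1 (2.61) and Hmgcs1 (1.07). It was below 0 for the cytokine genes Il1b (-11.37), Il15 (-4.89) and Tnf (-4.05), and for the chemokine genes Cxcl1 (-8.89), Cxcl2 (-7.34), Ccl7 (-4.33), Ccl4 (-4.08), Ccl2 (-3.90) and Ccl3 (-2.77). It was also below 0 for Nos2 (-11.53), Rnd1 (-9.67), Mmp14 (-7.67), Nfil3 (-6.38), Tnfaip3 (-5.92), Ifitm5 (-5.27) and Myc (-1.17). Nos2 started from few normalized counts in unstimulated BMDMs, as given above, so the size of its difference is uncertain. For Il6 (-13.20), Olr1 (-8.99), Csf3 (-5.73) and Fosl1 (-4.90) the first dose started from at most 5 reads in any unstimulated sample, and from 0 in each for Il6, so that the size of their difference depends on the prior count of the fit. Carboplatin, the earlier LPS, the time in culture and the change of medium all differ between the 2 responses and cannot be told apart.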

How the results depend on the processing

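The 1040 called genes became 224 without the replicate block, 516 by DESeq2 and 209 by limma-voom without it, 1766 when the 6 samples alone were fitted, and 472 to 633 when a sample was left out. The 59 DEGs became 30 without the replicate block, 29 by limma-voom without it and 31 with at least 10 counts asked of each of the 6 samples. They became 302 with |log2FC| > 1, and 44 to 55 when a sample was left out. Of the DEGs in the fits that left out a sample, 33 to 43 were among the 59, and the rest were other genes. RLE scaling, library size alone, no filter, and DESeq2 or limma-voom with the replicate block gave 935 to 1294 called genes. Of the 1040, 1035 were also called by DESeq2 and 903 by limma-voom with the block, and 222 by these and by edgeR without it. Difference of the effects with and without carboplatin: 0 genes became 1 in the fit of the groups compared. Against the first dose, 4671 genes became 3112 without the replicate block and 4050 to 4298 when a sample was left out.

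Of 90 called genes among those named by rule, 52 lost their call and 0 turned direction without the replicate block, and 39 lost it when some sample was left out. Several other genes given as higher or lower, among them Egr1, Nr4a1, Dusp5, Dusp6 and Ccnd1, were not followed gene by gene in these fits. Any sample left out ended the calls of Csf3, Sesn2, Xbp1, Bhlhe40, Jmjd1c, Setdb1 and Plekhm1, and 4 of the 6 those of Nfkb1, Gclc, Per1, Pcna, Tubb4b and Fcgr1. For Srxn1, Txnrd1, Ddit4 and Bag3 it was 3, and for Gbp7, Nr1d2 and Cbx3 2. Directions that turned belonged to genes that were not called. When a sample was left out, the log2FC of Saa3 ran from -0.19 to 0.0080 (above 0 without LPS-tolerant replicate 3), the log2FC of Csta2 from -0.044 (without LPS-tolerant replicate 2) to 0.30, and the log2FC of Rnd1 from -0.29 to 0.017, with values above 0 without LPS-primed replicate 3 or LPS-tolerant replicate 2 or 3 (0.014, 0.017 and 0.0019). With library size alone the log2FC of Mmp14 was -0.0022. The causes were not tested. Depth limits genes with few reads, among them Ifnb1, Il12b, Setdb2 and Kdm4d.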

Other observations

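Some of the DEGs belong to none of the lists, and the genes given here were chosen after their values were seen. Bambi and Smad7 are not DEGs, and Smad7 is in the list of macrophage lineage factors and receptors. Smad6, which encodes an inhibitor of BMP signalling and is itself a known target of it, had 106 ± 32.9 normalized counts in LPS-primed and 703 ± 128 in LPS-tolerant BMDMs with carboplatin (SD, n = 3; log2FC 2.73, SE 0.32, adjusted p = 3.17e-05, edgeR). It was higher in all 3 pairs, as were Id1, Id2, Id3 and Pmepa1, and its log2FC was 2.83 without carboplatin and 3.54 at the first dose. Bambi, a decoy receptor gene, had a log2FC of 1.15 (adjusted p = 0.0423), but the call was lost without the replicate block (adjusted p = 0.111) and in 5 of the 6 fits that left out a sample, all but that without LPS-tolerant replicate 1. Smad7 was not called (1.07, adjusted p = 0.0624).

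Odc1, which encodes the rate-limiting enzyme of polyamine synthesis and is a known target of MYC, rose from 1012 ± 399 to 4385 ± 2356 normalized counts (log2FC 2.07, adjusted p = 9.41e-05). Pdgfb, the gene of a platelet-derived growth factor chain, rose from 58.0 ± 12.3 to 261 ± 36.6 (log2FC 2.18, adjusted p = 1.44e-05). Marchf1, which encodes a ubiquitin ligase that removes MHC class II and CD86 from the surface, fell from 611 ± 200.5 to 151 ± 71.6 (log2FC -2.07, adjusted p = 1.08e-05), and Arrdc3, an arrestin domain gene, from 225 ± 52.9 to 51.3 ± 3.35 (log2FC -2.12, adjusted p = 4.31e-04). Smad6, Pmepa1 and these 4 genes stayed called without the replicate block (edgeR adjusted p from 2.36e-04 for Pdgfb to 0.0484 for Marchf1) and in each of the 6 fits that left out a sample.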
